A study of Bos taurus with 24 samples.

Results

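Translation initiation factors (eIF genes) and elongation factors (eEF genes) were examined in 16 bovine ovarian follicles. They were taken as every array feature whose single platform gene symbol starts with EIF or EEF and a digit. By that rule 82 of 17418 features belonged to the group, and they represented 48 of 9425 genes. Of these, 44 had a feature with values on at least 20 of 24 arrays and could be tested, among 9026 genes tested in all. The 4 others were EIF5A (15 arrays), EEF1E1 (15 arrays), EIF2B2 (17 arrays) and EIF3B (7 arrays), and they were not analysed further. A further 45 features carried several symbols with a translation factor among them, those of EEF1A1 included, and were left out by the rule.

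The follicles were the largest of 16 heifers, 8 to 12 mm across, 1 follicle per animal, and the labels give each an identifier (8, 26, 27, 31, 33, 46, 861, C10, C12, C13, C22, C26, C32, C35, H893 and J980) with no treatment, stage, strain or age. Each of 24 two-colour arrays compared total RNA of 2 follicles, each follicle was on 3 arrays, and both dyes were used for all 16. The comparison is therefore between follicles, and a level is the estimated log2 value relative to the mean of the 16 follicles. Its SE comes from array error and holds no spread between animals, so the tests compare these 16 RNA samples.

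Translation of an mRNA begins when eIF2, carrying GTP and the initiator tRNA, joins the small ribosomal subunit with eIF1, eIF1A, eIF3 and eIF5. The eIF4 proteins bind the cap of the mRNA and unwind its leader, the complex scans to the start codon, and eIF5B joins the large subunit. Elongation factors then deliver aminoacyl-tRNAs (eEF1) and move the ribosome along the mRNA (eEF2). Translation is commonly controlled by phosphorylation of eIF2 and by proteins that sequester the cap-binding protein eIF4E, which an RNA measurement does not show. In growing follicles granulosa cells divide and secrete protein, so demand on this machinery is high.

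The arrays held 16094 to 17028 values each, and the median SE of a translation factor level was 0.12. Follicle J980 stood apart. The SD of levels over all genes was 0.33 in J980 and 0.19 to 0.24 in the other 15 follicles, and over the translation factors it was 0.33 in J980 and 0.14 to 0.24 in the others. Mean levels of markers placed J980 below all other follicles for granulosa and for smooth muscle and stroma. For leukocytes, theca and endothelium J980 lay within their range. The mean level of 10 granulosa markers was -0.58 in J980 and -0.28 to 0.29 in the others. Of these markers, INHBA (-2.69), FST (-2.05), INHA (-0.77) and SERPINE2 (-0.55) were lowest in J980, and GATM (0.71) was highest there. INHBA and FST, far below the other markers, weigh most in that mean. J980 held neither the highest nor the lowest level of NR5A2, AMH, FSHR, HSD17B1 and CYP19A1. The mean of 8 smooth muscle and stroma markers was -0.41 in J980 and -0.18 to 0.21 in the others. The mean of 10 leukocyte markers was 0.27 in J980 and -0.32 to 0.50 in the others, that of 5 theca markers was -0.19 in J980 and -0.40 to 0.34 in the others, and that of 4 endothelial markers was 0.30 in J980 and -0.56 to 0.69 in the others. Fewer cells of a type and less RNA per cell cannot be told apart in whole-follicle RNA, and the part of cell composition in the results below was not tested.

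Of the 44 translation factors tested, 8 (18.2%) passed an F test for any difference among the follicles (limma, variances moderated, p adjusted by Benjamini-Hochberg over all genes), against 11.8% of all genes tested. They were EIF4A1, EEF2, EIF2S2, EIF3E, EIF5B, EIF1AD, EIF4E and EIF4A3. Among 66 cytosolic ribosomal proteins 11 (16.7%) did. Whether the share of either set differs from that of all genes was not tested. At an unadjusted p under 0.05 there were 18 translation factors (40.9%), 27 ribosomal proteins (40.9%) and 2390 genes in all (26.5%). The median SD of levels over the follicles was 0.18 for translation factors, 0.17 for ribosomal proteins and 0.17 for all genes. Without J980 and its 3 arrays, 4 translation factors (9.09%), 5 ribosomal proteins (7.58%) and 673 of 9004 genes (7.47%) passed. The 4 were EIF4A1, EEF2, EIF3E and EIF5B, all among the 8.

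**Figure D1:**
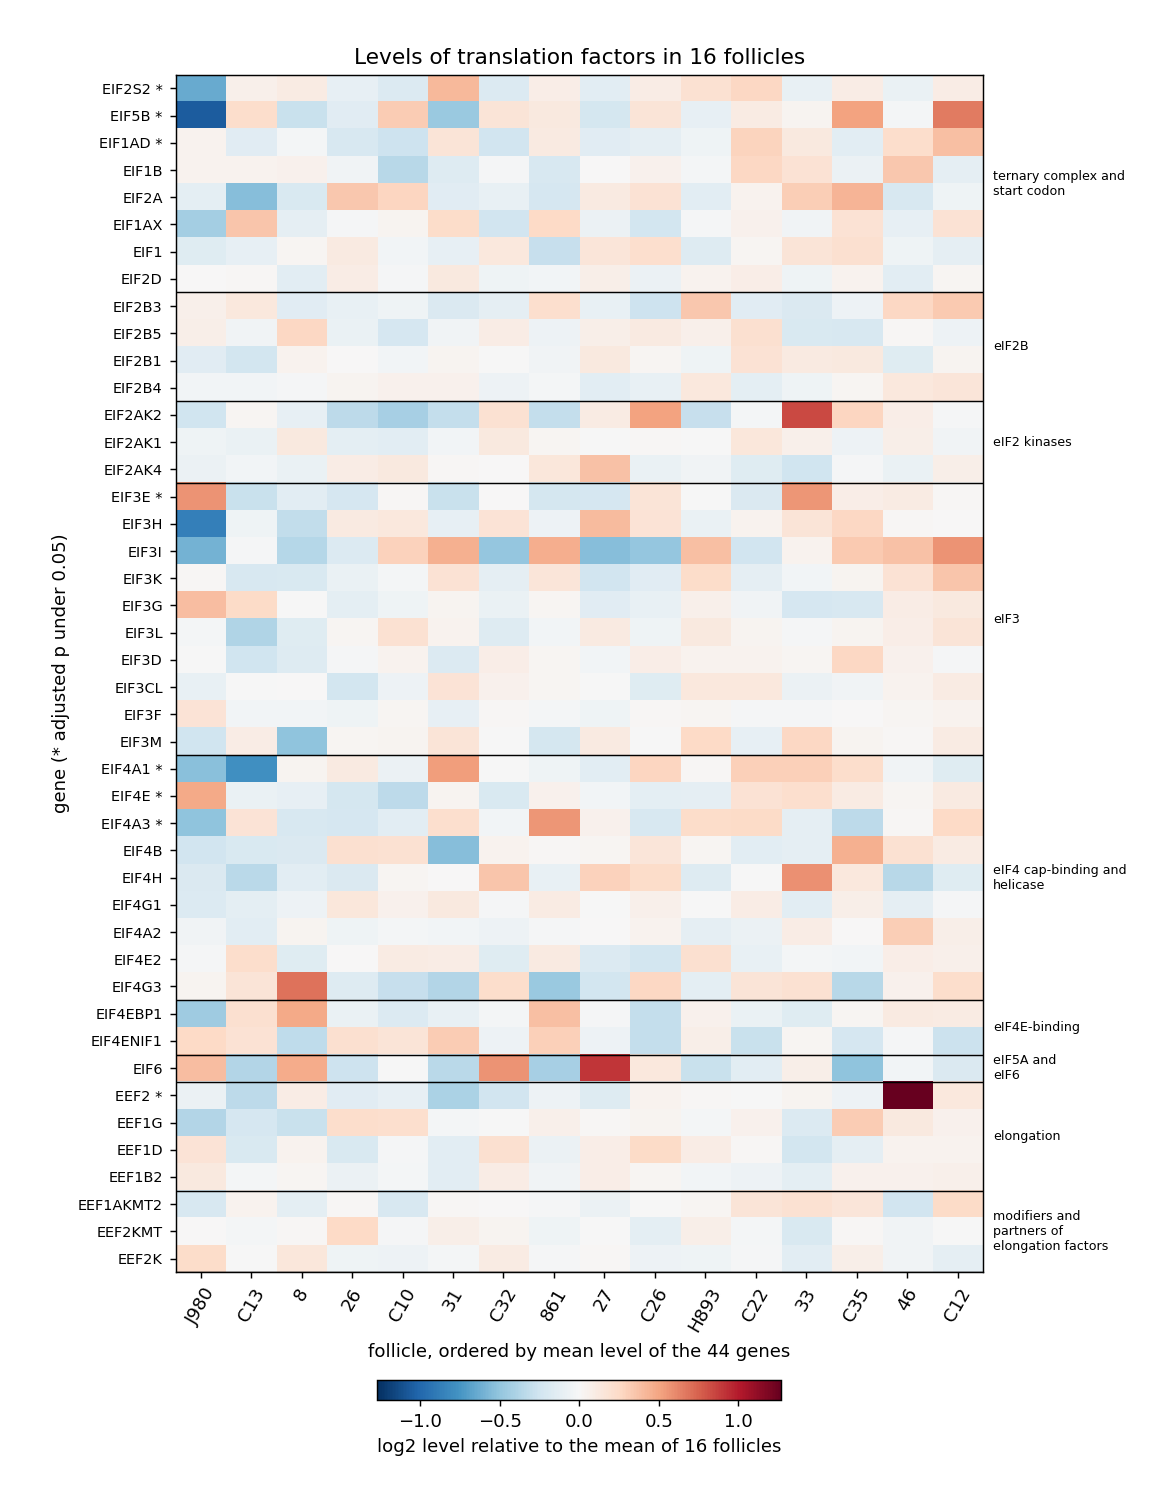
Log2 level of each of 44 translation factors (rows, by role) in each of 16 follicles (columns, from lowest to highest mean level), with colour from blue (low) to red (high) and an asterisk at an adjusted p under 0.05. J980 at the left holds the lowest value of 9 genes and the highest of 6, and the darkest cell is EEF2 in follicle 46 at 1.27.

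The map of levels shows single cells more than whole columns. J980 had the lowest level of 9 of the 44 translation factors (20.5%), of 25 of the 66 ribosomal proteins (37.9%) and of 15.5% of all genes. It had the highest level of 6 translation factors (13.6%), of 10 ribosomal proteins (15.2%) and of 13.5% of all genes. Among the 8 translation factors past the threshold, EIF2S2, EIF5B and EIF4A3 were lowest in J980, and EIF3E and EIF4E were highest there.

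A group listed by gene symbol under the ternary complex and start codon selection had 3 of its 8 tested genes past the threshold, beside 11.8% of all genes. The median SD of the group was 0.20. Among the 3 are EIF5B, which acts at subunit joining, and EIF1AD, placed here by its symbol. EIF2S2 encodes the beta subunit of eIF2, the factor that carries the initiator tRNA. Its level was 0.41 ± 0.09 (SE, 3 arrays) in follicle 31, with a median of 0.07 over the follicles and -0.64 ± 0.10 in J980 (adjusted p = 0.00925). The next lowest was C10 at -0.17, so J980 lay below the rest, and all 3 of its arrays gave that direction: the log ratio was -0.74 for J980 over follicle 8, -0.50 for J980 over 27, and 0.59 for 26 over J980. Without J980 the adjusted p was 0.0843 over the remaining 15 follicles.

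EIF5B, the GTPase that joins the ribosomal subunits, had the widest span of the 8 genes. It was at 0.66 ± 0.18 in C12 and 0.51 in C35, with a median of 0.07, and at -1.06 ± 0.18 in J980, a 3.28-fold span (adjusted p = 0.0123). On the arrays the log ratio was -1.30 for J980 over 27, -0.65 for J980 over 8 and 0.66 for 26 over J980. Follicle 31, next lowest at -0.47, also differed from others on its own arrays, with a log ratio of -1.11 over C10 and of -0.57 over C13. The call did not rest on J980, since without it the adjusted p was 0.0170.

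EIF1AD, named for a domain like that of eIF1A, had a smaller span. Its level was 0.39 ± 0.10 in C12 and -0.27 ± 0.09 in C10, with a median of -0.04 (adjusted p = 0.0293). Its 2 features followed each other (r = 0.63 over 16 follicles), at 0.33 ± 0.09 and 0.44 ± 0.16 in C12 and at -0.36 ± 0.08 and -0.17 ± 0.14 in C10. It no longer passed when any 1 of 12 arrays, of the 24, was left out, nor without J980 (adjusted p = 0.0606).

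The other 5 of this role did not pass. EIF1B, a close relative of the start codon factor EIF1, was at 0.34 ± 0.11 in follicle 46 and -0.35 ± 0.09 in C10 (adjusted p = 0.0667). EIF2A, a factor distinct from eIF2 that can bind initiator tRNA, was at 0.43 ± 0.16 in C35 and -0.54 ± 0.16 in C13 (adjusted p = 0.113). EIF1AX, which encodes eIF1A, was at 0.35 ± 0.14 in C13 and -0.43 ± 0.15 in J980 (adjusted p = 0.166). EIF1 had an adjusted p of 0.385. EIF2D, which can place tRNA without GTP, had an SD of 0.08, among the 3 smallest of all translation factors (adjusted p = 0.422). Relatives as close as EIF1 and EIF1B or EIF4A1 and EIF4A2 may share signal on an array, and this was not tested.

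eIF2B exchanges the GDP on eIF2 for GTP, and its 4 subunits tested gave 0 calls by limma at the threshold, with 1 at an unadjusted p under 0.05. EIF2B3, the gamma subunit, had the smallest p, at 0.34 ± 0.12 in H893 and -0.26 ± 0.11 in C26 with a median of -0.08 (adjusted p = 0.185). The SDs of EIF2B1, EIF2B4 and EIF2B5 ranged from 0.09 to 0.14.

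The kinases that phosphorylate eIF2 also gave 0 calls among 3 tested, and 0 at an unadjusted p under 0.05. EIF2AK2, the double-stranded RNA-activated kinase PKR, is an interferon-induced gene in other mammals. Its level was 0.84 ± 0.19 in follicle 33, the median was -0.02, and it was -0.43 ± 0.22 in C10 (adjusted p = 0.225). In J980 it was -0.25, although ISG15 was 3.11 and MX1 3.03 in the same follicle. Over the 16 follicles its r with the mean of 6 interferon-induced genes was 0.32 and its rho 0.26, and with single genes r ranged from 0.40 for IFI27 to -0.47 for OAS1X. EIF2AK1 and EIF2AK4, the kinases activated by haem shortage and by uncharged tRNA, had adjusted p-values of 0.551 and 0.605.

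**Figure D2:**
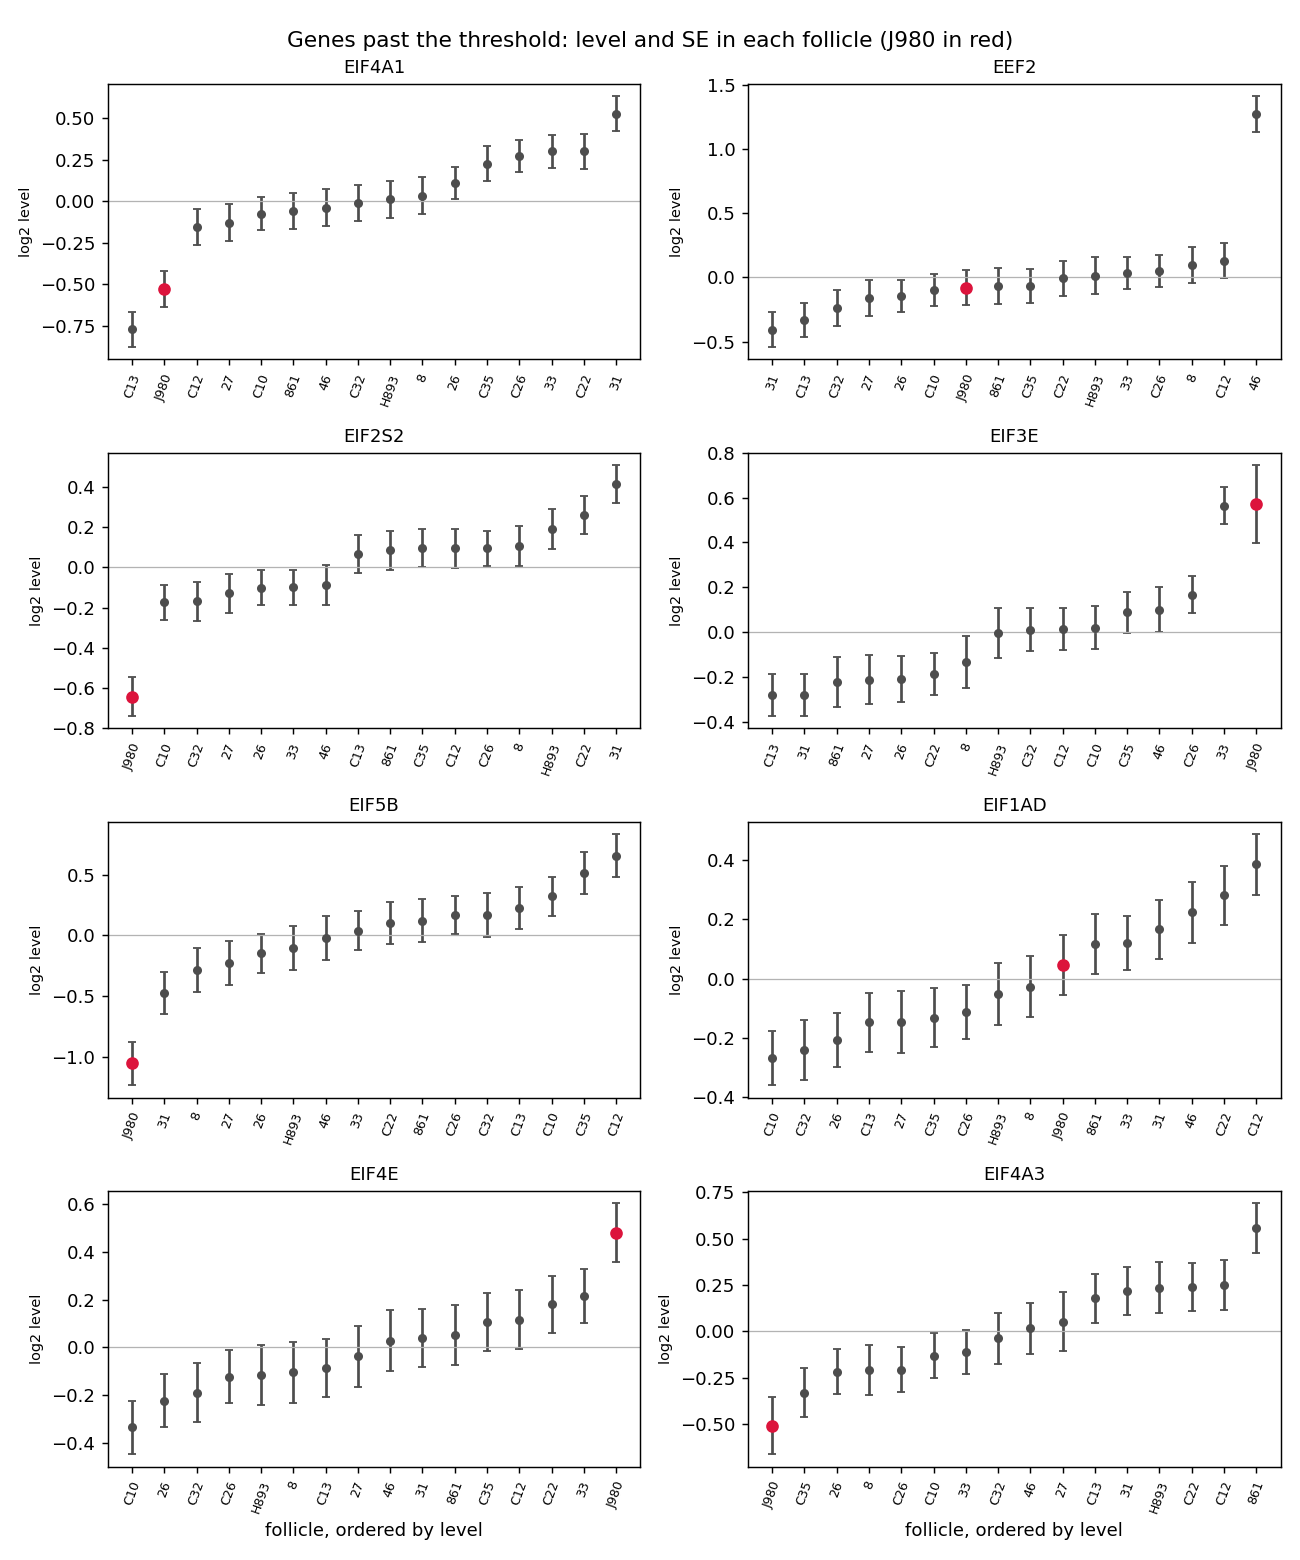
Log2 level (vertical axis) with its SE in each of 16 follicles (horizontal axis, ordered by level) for the 8 translation factors past the threshold, with J980 in red. In EEF2 only follicle 46 lies away from the rest, and J980 is lowest in EIF2S2, EIF5B and EIF4A3 and highest in EIF3E and EIF4E.

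eIF3 is the largest initiation factor, a scaffold of many subunits on the small ribosomal subunit. Of its 10 genes tested 1 passed, beside 11.8% of all genes, with a median SD of 0.17. That gene was EIF3E, whose level was 0.57 ± 0.17 in J980 and 0.56 ± 0.08 in follicle 33, with a median of 0.00 and -0.28 ± 0.09 in C13 (adjusted p = 0.0119). The J980 level rests on 1 array, with a log ratio of 0.70 over follicle 8, because the other J980 arrays gave no value. Follicle 33 was high on each of its 3 arrays, with log ratios of 0.51 over C12 and 0.87 over C13, and of -0.41 for C26 over 33. The adjusted p was 0.0179 without J980 and 0.0585 without follicle 33 (replicate 2).

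EIF3H had the widest span of levels among the eIF3 genes and did not pass. It was at 0.40 ± 0.19 in follicle 27 and -0.87 ± 0.19 in J980, with a median of 0.03 (adjusted p = 0.0907). Both its features were low in J980, at -1.04 ± 0.25 and -0.70 ± 0.14, and they followed each other over the follicles (r = 0.89). The J980 arrays disagreed in size and, for 1 feature, in sign. The log ratios of the 2 features were -1.87 and -1.12 for J980 over 27 and 1.56 and 0.81 for 26 over J980. For J980 over 8 they were 0.09 and -0.13, and follicle 8 was itself second lowest for the gene at -0.31. EIF3I, a WD-repeat subunit, had the largest SD of all 44 genes, 0.41, with 0.57 ± 0.19 in C12 and -0.60 ± 0.19 in J980 (adjusted p = 0.153). Within eIF3, the levels of EIF3I and EIF3K had r = 0.80 over the 16 follicles, and those of EIF3G and EIF3H had r = -0.81.

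EIF3D, a subunit that can bind the cap of some mRNAs, showed how a gene mean can hide its features. It had 2 features, each with values on 24 arrays and each past the threshold in the fit of single features, where 12.2% of 16358 features were. In J980 one was at 0.86 ± 0.12 and was its highest follicle (adjusted p = 0.00542), and the other at -0.87 ± 0.20 and was its lowest (adjusted p = 0.0368). For the feature high in J980, the log ratios were 1.07 for J980 over 27, 0.67 for J980 over 8 and -1.34 for 26 over J980. In the same order they were -1.15, -0.11 and 1.26 for the feature low in J980. Their r over the follicles was -0.78, and the gene mean was -0.00 in J980 with an adjusted p of 0.342.

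EIF3F had the smallest SD of all, 0.06, as a mean of 6 features that did not move together either. Pairs of its features had r from 0.72 to -0.67, and 1 of them passed, at 0.48 in J980 and -0.27 in follicle 8 (adjusted p = 0.0232). The other eIF3 genes were EIF3CL, EIF3G, EIF3K, EIF3L and EIF3M, with adjusted p-values from 0.214 to 0.496. Of 4 EIF3L features 1 passed, at 0.54 in follicle 46 and -0.46 in J980 (adjusted p = 0.0458).

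The eIF4 complex binds the cap and unwinds the mRNA leader. Of the 9 genes listed in this group by symbol 3 passed, beside 11.8% of all genes, with a median SD of 0.23. EIF4A1, the RNA helicase of this complex, had the smallest p of all translation factors. Its level was 0.53 ± 0.11 in follicle 31 and -0.77 ± 0.11 in C13, with a median of 0.00, a 2.46-fold span (adjusted p = 9.55e-04). J980 was second lowest at -0.53. Hybridised together, follicle 31 gave a log ratio of 1.38 over C13, follicle 33 gave 1.19 over C13, and C13 gave -0.66 over 46, so all 3 arrays of C13 showed less. The adjusted p was 0.00219 without J980.

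EIF4E, the cap-binding protein itself, went the other way in J980. It was at 0.48 ± 0.12 there and -0.34 ± 0.11 in C10, with a median of -0.00 (adjusted p = 0.0428). The log ratio was 0.60 for J980 over 8, 0.52 for J980 over 27, and -0.71 for 26 over J980. EIF4E did not pass without J980 (adjusted p = 0.318), nor when any 1 of 20 arrays, of the 24, was left out.

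EIF4A3, a helicase related to EIF4A1 that is known as a core of the exon junction complex, was at 0.56 ± 0.13 in follicle 861, a median of -0.01, and -0.51 ± 0.15 in J980 on 2 arrays (adjusted p = 0.0487). The 861 arrays gave log ratios of 0.72 over C10, of -0.25 for 46 over 861 and of -0.52 for H893 over 861. EIF4A3 did not pass when any 1 of 21 arrays was left out, nor without J980 (adjusted p = 0.0876). EIF4A1 and EIF4A3 were both low in J980 while EIF4E was high there, so these 3 genes had no common direction in that follicle.

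The other eIF4 genes did not pass. EIF4B, which stimulates the helicase, was at 0.45 ± 0.16 in C35 and -0.54 ± 0.16 in follicle 31 (adjusted p = 0.137). EIF4H, a relative with the same role, was at 0.58 ± 0.16 in follicle 33 and -0.36 ± 0.18 in 46 (adjusted p = 0.174). EIF4G3, a scaffold protein, was at 0.69 ± 0.32 in follicle 8, a high value with a large error (adjusted p = 0.739). EIF4G1, EIF4A2 and EIF4E2 had adjusted p-values of 0.295, 0.586 and 0.618, though 1 of 4 EIF4G1 features passed, at 0.37 in follicle 31 and -0.66 in J980 (adjusted p = 0.0480).

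Of the proteins that bind eIF4E, EIF4EBP1 is the repressor that releases eIF4E when mTOR phosphorylates it. Its RNA was at 0.48 ± 0.16 in follicle 8 and 0.38 in 861, with a median of -0.02 and -0.45 ± 0.15 in J980, and did not pass (adjusted p = 0.0646). EIF4E was thus highest in the follicle where EIF4EBP1 was lowest, each from its own feature. EIF4ENIF1, which carries eIF4E into the nucleus, had an adjusted p of 0.631. EIF6, which keeps the large ribosomal subunit from joining too early, had the second largest SD, 0.40. It was at 0.91 ± 0.25 in follicle 27 and 0.57 in C32, with a median of -0.08 and -0.51 ± 0.24 in C35, and with its larger array error did not pass (adjusted p = 0.167).

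Of 4 elongation factor genes 1 passed, beside 11.8% of all genes, with a median SD of 0.17. EEF2, the translocase that moves the ribosome by 1 codon, was at 1.27 ± 0.14 in follicle 46, with a median of -0.07 and -0.41 ± 0.13 in follicle 31, a 3.19-fold span (adjusted p = 0.00323). The next highest was C12 at 0.13, so follicle 46 stood alone. The subunits of the exchange factor eEF1B did not pass: EEF1G had an adjusted p of 0.257, EEF1D of 0.435 and EEF1B2 of 0.680, the last with an SD of 0.08.

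The EEF2 result rests on 1 of 2 features. The feature with values on 23 arrays was at 2.40 ± 0.20 in follicle 46 (adjusted p = 6.03e-04), and all 3 arrays of that follicle agreed in direction, with log ratios of 2.67 for 46 over 861, -2.81 for C13 over 46 and -2.29 for C12 over 46. The feature with values on 24 arrays was at 0.11 ± 0.13 in follicle 46 (adjusted p = 0.252), and its log ratios on the same arrays were 0.21, -0.58 and 0.49. Their r over the 16 follicles was 0.27. With 1 feature per gene EEF2 was lost (adjusted p = 0.246).

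The high EEF2 feature was also not alone on the array. Feature identifiers have 3 numbers, whose meaning the labels and files do not state, and it ends in 23 and 25. Of 32 features with these last 2 numbers, the 25 whose first number is 1 to 25 were at -0.85 to 0.31 in follicle 46. The 7 whose first number is 26 to 32 were at 0.20 to 3.39, with EEF2 at 2.40 and the F-box gene FBXO28 at 1.66. Among all features tested 0.385% exceeded a level of 1 in that follicle. Of the 10 features most like the EEF2 feature over the follicles, 4 shared its last 2 numbers. Whether array position set this value was not tested.

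**Figure D3:**
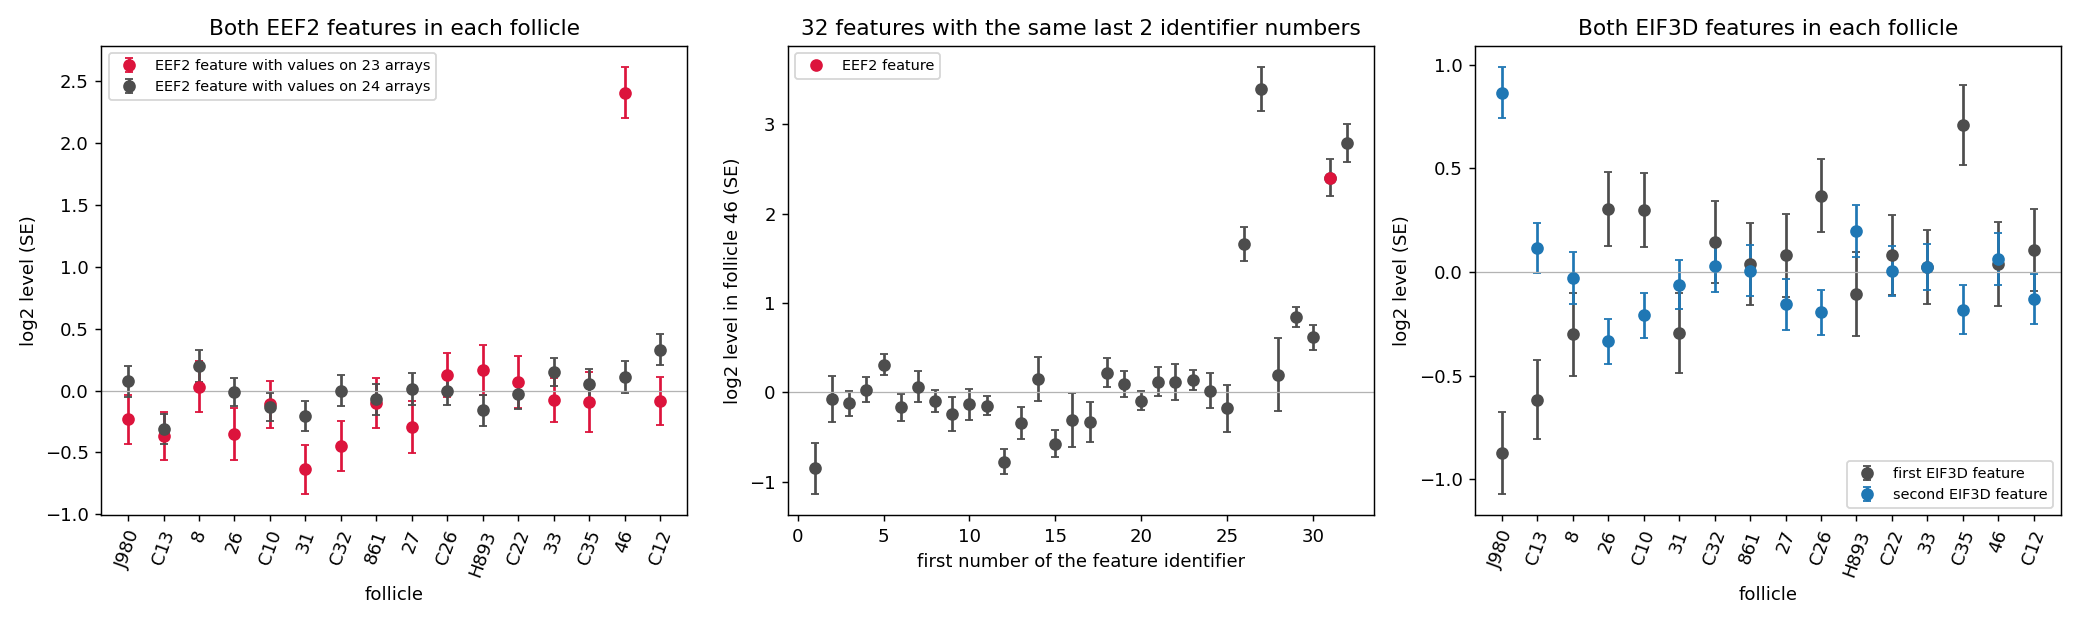
Left, log2 level with SE of both EEF2 features in each of 16 follicles, where they part in follicle 46 (2.40 and 0.11). Middle, level with SE in follicle 46 of the 32 features that share the last 2 identifier numbers of the high EEF2 feature (red), by first identifier number, with the high values from 26 onward. Right, both EIF3D features, which part in J980 (-0.87 for the first and 0.86 for the second in the legend).

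The plot of both EEF2 features and both EIF3D features shows 2 ways in which a gene level can depend on its features. Of 20 translation factors with at least 2 features tested, the median of the pairwise r between features of 1 gene was 0.16. It was above 0.5 for 4 genes (EIF3H, EIF2D, EIF1AD and EIF4B) and below 0.2 for 11. Besides EIF3D, the features of EIF4A2 ran opposite (r = -0.70). Over single features, 12 of 75 (16%) passed, beside 12.2% of all features tested.

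Enzymes that modify elongation factors varied least, with 0 calls by limma among 3 tested, 0 at an unadjusted p under 0.05, and a median SD of 0.10. EEF1AKMT2, a lysine methyltransferase of eEF1A, was at 0.24 ± 0.13 in C12 and -0.24 ± 0.13 in follicle 46, with a median of 0.01 (adjusted p = 0.313). EEF2K, the kinase that inhibits eEF2, was at 0.24 ± 0.11 in J980 and -0.14 ± 0.10 in follicle 33 (adjusted p = 0.745). EEF2KMT, which methylates eEF2, had an adjusted p of 0.703.

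For the 3 translation factors of smallest p, the genes most like them over the 16 follicles were named by Pearson's r among all genes tested. For EIF4A1 they were ARF3 (r = 0.90), UGDH (0.87) and PPP2CA (0.85), each past the threshold. For EEF2 they were LEMD3 (0.92), EIF4A2 (0.87) and FBXO28 (0.85), all highest in follicle 46. In the F test LEMD3 (adjusted p = 0.626) and EIF4A2 (adjusted p = 0.586) did not pass, and FBXO28 did (adjusted p = 0.00965). By rank the likeness was lower, with rho of 0.76, 0.66 and 0.24 in that order. FBXO28 is the gene whose feature shares identifier numbers with that of EEF2. For EIF2S2 they were SMC4 (0.94), CHCHD2 (0.91) and ATP5MC3 (0.90), each past the threshold. Levels of all genes share the same 24 arrays, so these r values describe likeness and were not tested.

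The mean level of the 44 translation factors was compared with that of the 66 ribosomal proteins, which are part of the same machinery. Over the 16 follicles the means had r = 0.66 and rho = 0.49. The mean of the translation factors was -0.10 in J980 and -0.07 to 0.08 in the others, and that of the ribosomal proteins was -0.17 in J980 and -0.14 to 0.08 in the others. With the J980 level left out r was 0.48, and without C12 and J980, the follicles farthest from the median, it was 0.46. The means share arrays, and what the fit left over on the 24 arrays was also alike in both sets (r = 0.76 between mean residuals). For the mean of the 8 factors past the threshold the r with the ribosomal proteins was 0.35, and for that of the other translation factors 0.79, and the difference was not tested.

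This relation depended on which features were read. The platform gives an accession for each feature, and 999 of the 16358 features tested have one that starts with AV, all with a second identifier number of 1 to 3. They made up 171 of 238 ribosomal protein features (71.8%), 17 of 75 translation factor features (22.7%) and 5.05% of the features in neither set. The means of AV features moved together whatever the set. The mean of the 811 AV features in neither set was -0.23 in J980, -0.19 in C13 and 0.12 in C26. It had r = 0.91 with the mean of the 17 AV translation factor features and r = 0.98 with that of the 171 AV ribosomal protein features. Without J980 these were 0.88 and 0.97. Of the 8 translation factors past the threshold only EEF2 has an AV feature. The other AV features of translation factors belong to genes that did not pass. The part of this in the r of 0.35 for factors past the threshold and 0.79 for the others was not tested.

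Read from features of other accessions, the sets were less alike. The 58 such features of translation factors and the 67 of ribosomal proteins had means with r = 0.35, and in J980 these means were -0.06 and -0.01. The AV features of translation factors and the other features of ribosomal proteins had r = 0.01. With AV features left out of the gene levels, the r of 0.66 became 0.32. All 8 translation factors past the threshold remained, and EIF3D and EIF3F joined them. EIF3D was then read from its feature that was high in J980, and EIF3F from 1 feature in place of 6. The ribosomal proteins past the threshold numbered 6 of 52, of which 3 were among the 11.

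**Figure D4:**
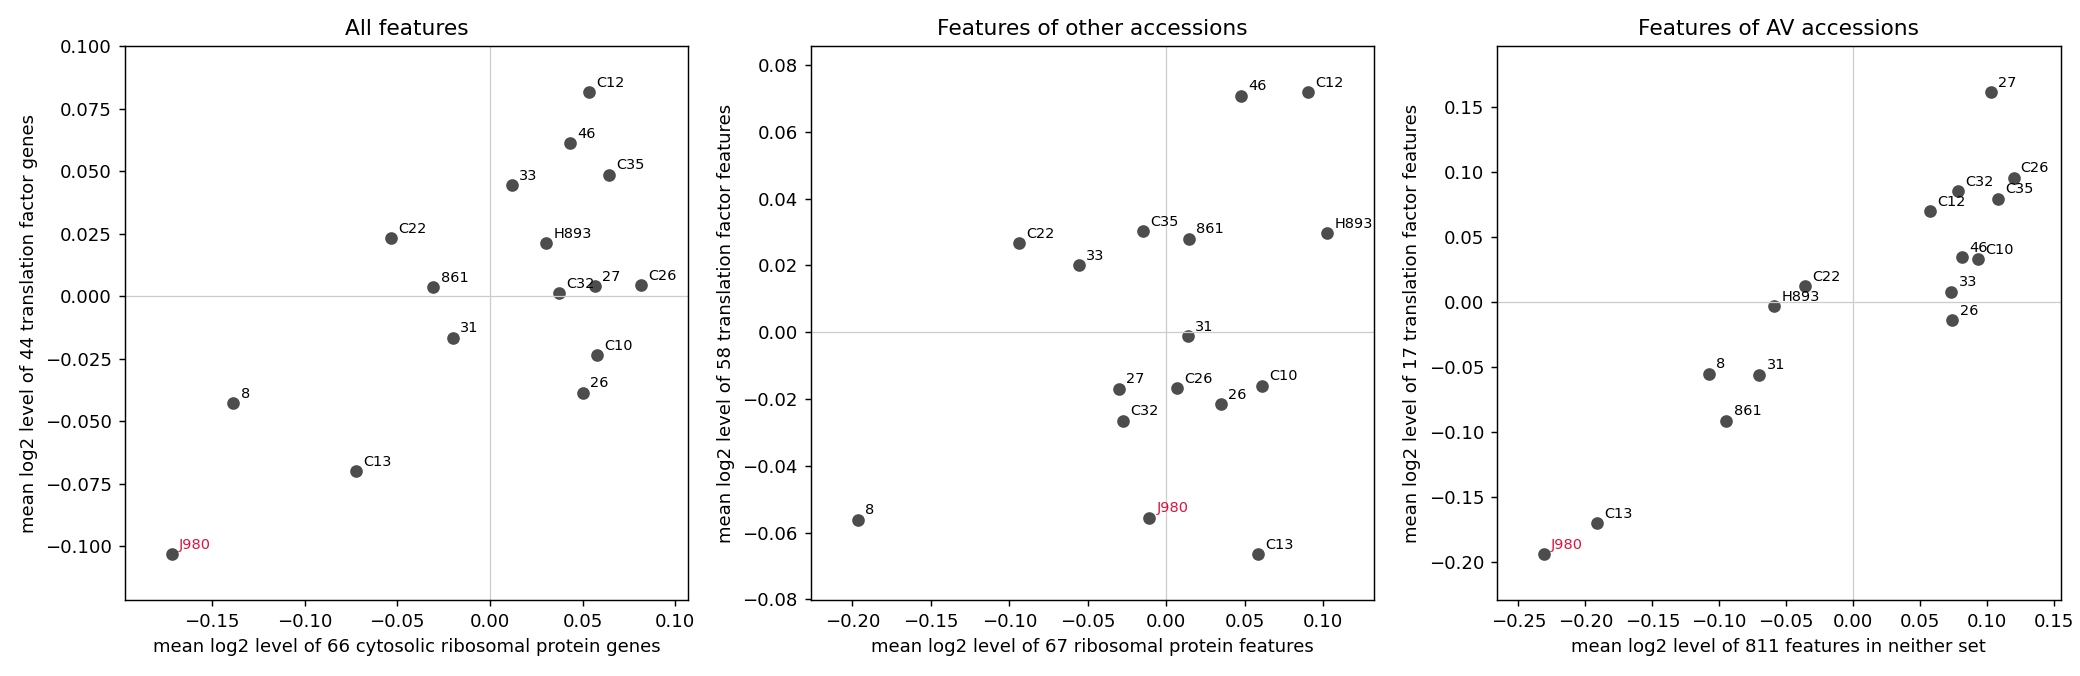
Mean log2 levels in 16 follicles (points). Left, the 44 translation factor genes (vertical) against the 66 ribosomal protein genes (horizontal), r = 0.66; middle, 58 against 67 features with other accessions, r = 0.35; right, the 17 AV translation factor features against the 811 AV features in neither set, r = 0.91, with J980 and C13 at the low end.

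The plots of mean levels show J980 and C13 lowest on the AV axis, whereas C13 is above 0 for ribosomal proteins read from other features (0.06). Single translation factors differed widely in how they followed the ribosomal proteins. The median r of the 44 with the ribosomal mean was 0.15, against -0.02 for 8916 other genes, and 7 (15.9%) exceeded 0.5, against 7.26% of the others. These 7 were EIF3H (0.84), EEF1G (0.80), EIF4B (0.68), EIF3M (0.65), EIF5B (0.63), EIF2A (0.55) and EIF3D (0.53). EIF3H, EEF1G, EIF3M and EIF3D each have an AV feature beside another one. The r of EEF1G's AV feature with the AV features in neither set was 0.89 and that of its other feature -0.33, and in J980 they were at -0.98 ± 0.27 and 0.23 ± 0.12. For EIF3H both features followed that mean, at 0.76 for the AV feature and 0.85 for the other. EIF4B, EIF5B and EIF2A have no AV feature, and their r with the same AV mean was 0.69, 0.55 and 0.72. EEF2K (-0.66) and EIF3G (-0.63) were the 2 of 44 with an r below -0.5 with the ribosomal mean, against 6.36% of the other genes. With J980 left out, these r values were -0.44 and -0.38.

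**Figure D5:**
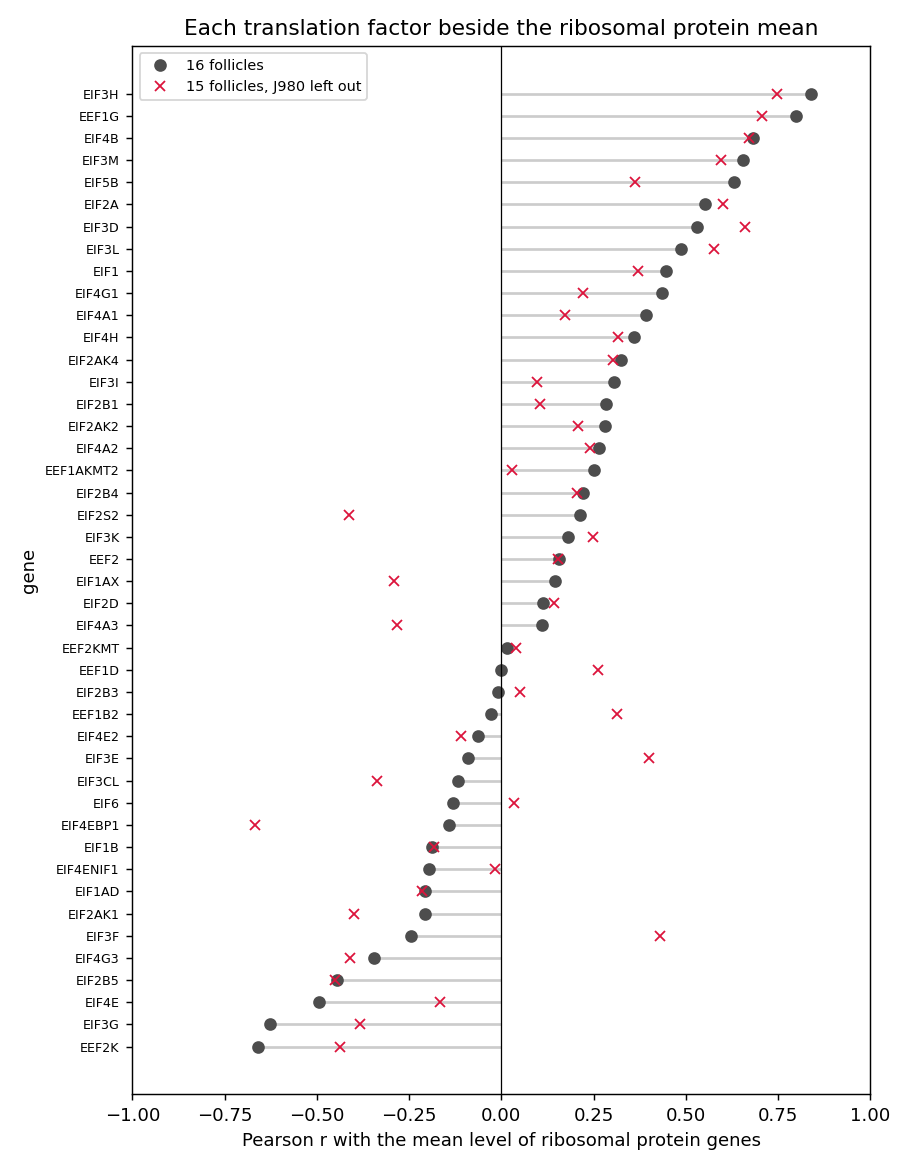
Pearson r (horizontal axis) of each of 44 translation factors with the mean of 66 ribosomal protein genes over 16 follicles (dots) and with J980 left out (crosses). The dots range from 0.84 for EIF3H to -0.66 for EEF2K, and for EIF5B the r was 0.63 with J980 and 0.36 without it.

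The plot of r values spreads over both signs, and the translation factors did not move as 1 block. The median r over 946 pairs of translation factors was 0.03, and 8.46% of pairs exceeded 0.5. Over 2145 pairs of ribosomal proteins the median was 0.17 and 21.9% exceeded 0.5. AV features made up 71.8% of ribosomal protein features and 22.7% of translation factor features, and their part in this difference was not tested. The median r with other genes was -0.00 for a translation factor and -0.01 for a ribosomal protein. Among the 28 pairs of the 8 translation factors past the threshold the median was 0.09. Of ribosomal proteins the 4 of smallest p were RPL31, at 0.59 in J980 and -0.34 in follicle 46 (adjusted p = 9.92e-04), RPL37A, at 0.41 in C10 and -0.42 in J980 (adjusted p = 0.00910), RPS29, at 0.72 in J980 and -0.27 in C10 (adjusted p = 0.0175), and RPL22L1, at 0.58 in C35 and -0.55 in J980 (adjusted p = 0.0182). They too had no common direction in J980.

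Other genes of translation were read from the same fit, beside the 11.8% of all genes. In termination and recycling 1 of 6 passed. It was GSPT1, the release factor eRF3a, at 0.65 in follicle 31 and -0.65 in J980 (adjusted p = 7.46e-04), the extremes that EIF2S2 also had. Of 8 poly(A) and helicase partners 1 passed, PABPC4, a poly(A)-binding protein, at 0.66 in J980 and -0.22 in follicle 26 (adjusted p = 0.0377). By limma there were 0 calls among 11 genes of the mTOR axis, 6 genes with terminal oligopyrimidine leaders that are neither ribosomal nor factors, and 7 mitochondrial translation factors.

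Of 14 cytosolic aminoacyl-tRNA synthetases, which load tRNAs with amino acids, 5 passed. CARS1 was at 1.10 in C26 and -0.70 in follicle 31 (adjusted p = 1.00e-04), and EPRS1 at 0.66 in C26 and -0.39 in follicle 8 (adjusted p = 0.00675). WARS1 was also highest in C26, at 0.51, and lowest in C13 at -0.61 (adjusted p = 0.0123). QARS1 was at 0.53 in J980 and -0.25 in C22 (adjusted p = 0.0110), and TARS1 at 0.45 in H893 and -1.54 in J980 (adjusted p = 0.0280). Of 9 genes of the integrated stress response, the programme that follows eIF2 phosphorylation, 3 passed. DDIT3 was at 0.36 in follicle 46 and -0.45 in J980 (adjusted p = 0.00947), NUPR1 at 0.40 in C22 and -0.49 in J980 (adjusted p = 0.0254), and ATF4, its central transcription factor, at 0.40 in follicle 26 and -0.39 in C13 (adjusted p = 0.0298).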

How the data were processed

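For each of 24 arrays the deposited value per feature is a log ratio of the channels, read here as log2. Base 10 is unlikely, since the largest absolute value was 6.32 and a log10 ratio of raw 16-bit intensities reaches 4.82. Background correction or normalization could pass that bound, so base 10 is not excluded. Natural logs are possible too, and fold values given here assume log2. Images were read in GenePix Pro 4.0.1.12, per the labels' protocols; how background was corrected and values normalized is not given in the sources used. Their direction was taken as Cy5 over Cy3, the order of the labels, though no source states it; every sign would turn with the inverse, while the F test and correlations would not change. Signal over background is unknown, and the number of arrays limits the precision.

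Gene symbols come from the platform annotation. All 48 genes were matched by gene ID to a RefSeq table, with 0 symbols changed. No sequences or coordinates are given. Arrays were centred on their medians. Features with values on at least 20 arrays were averaged per symbol and fitted with limma 3.58.1 in R 4.3.3, with a follicle effect (1 for Cy5, -1 for Cy3) and a dye term, 8 residual degrees of freedom, moderated variances, a joint F test and Benjamini-Hochberg adjustment over all genes at 0.05. Markers and other lists were read from the same fit. Samples were named by follicle and replicate in accession order, and nothing says arrays of a follicle used separate extracts, so p-values may measure technical spread. Unused columns of per-sample values numbered 0. Named were all translation factors past the threshold, the one of smallest p in each role, the 3 of smallest and largest SD, the 3 genes most like each of the 3 of smallest p, 4 ribosomal proteins and called genes of other lists; further translation factors, features and identifiers were named after their values were seen. The members and lists were chosen with earlier results of these data known. Alternatives changed centring, scaling, moderation, the dye term, the fewest arrays a feature needs, features per gene, array weights and the arrays included; leaving out AV features was added after seeing the data. In simulated data for the comparison of 9026 genes, of 200 genes given a level SD of 0.25 the test found 42.5% (4 false calls), and of 200 given an SD of 0.5 it found 93.5% (15 false calls). Simulated noise was independent between genes, whereas mean residuals of translation factors and ribosomal proteins were alike (r = 0.76). False calls in the data may therefore differ from these counts. Plots used Python 3.11.15 and matplotlib 3.10.9.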

Additional observations from a re-analysis of the deposited data

How the results depend on the processing

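The count of translation factors past the threshold, 8 of 44, was 7 to 11 under other centring, scaling, array minimum, dye, feature and weighting choices, 4 without moderation of variances, and 4 without J980. Leaving out 1 array gave 4 (follicle 33, replicate 2) to 9. The 11 ribosomal proteins became 19 with features on all 24 arrays, 4 with no dye term, 6 with unmoderated variances, 17 with array weights, 5 without J980 and 6 without AV features, and 4 (follicle 26, replicate 2) to 22 (J980, replicate 1) without 1 array. The 1061 genes of the whole table became 608 with no dye term, 589 with unmoderated variances and 673 without J980, and 681 to 1172 without 1 array. EIF4A1 passed under all alternatives run. With 1 feature per gene, or only features on all 24 arrays, EEF2 was lost, as were EIF2S2 without J980, EIF3E without follicle 33 (replicate 2), and EIF5B without moderation (adjusted p = 0.0658). EIF1AD, EIF4E and EIF4A3 were each lost without moderation and without J980 and in 12 to 21 of 24 fits without 1 array. EIF3E could not be estimated on features of all 24 arrays or without J980 (replicate 1). EIF4EBP1 passed with features on all 24 arrays, with array weights and in 3 fits without 1 array, EIF3F without AV features (adjusted p = 0.0197), EIF2AK2 with array weights (adjusted p = 0.0427), and EIF3I without follicle 46 (replicate 1; adjusted p = 0.0421). The r of both set means was 0.51 to 0.74 under the choices named first and without J980, 0.54 to 0.81 without 1 array, and 0.32 without AV features. Unless its construction shows it, the cause of a change was not tested. No paired analysis was possible because replicate numbers only name a follicle's arrays and each array already compares 2 follicles.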

Other observations

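An r above 0.5 with features that share the last 2 numbers of the identifier was also seen outside EEF2. The r of a feature's levels with the mean of the other features of the same last 2 numbers had a median of 0.24 over 75 translation factor features and 0.19 over all features, and exceeded 0.5 for 28% and 20.3% of them. It was 0.72 for EIF2S2, 0.64 for EIF4A1, 0.58 for the EEF2 feature with values on 23 arrays and 0.57 for EIF5B, and -0.54 for EIF4A3. The r describes 16 follicles on shared arrays and was not tested. No r with features of other last 2 numbers was computed, so whether sharing them goes with likeness was not tested either.

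In the fit of single features, 190 of the 811 AV features in neither set passed (23.4%), against 11.4% of the 15234 others in neither set. Of AV features of ribosomal proteins 38 of 171 passed (22.2%), and of those of translation factors 1 of 17 (5.88%).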
